A study of Mus musculus with 8 samples.

Results

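Untreated cultures of BV-2, a mouse microglial cell line, were described on their own from 2 of the 8 arrays in a study of the microglial response to lipopolysaccharide (LPS) and to a fraction, extracted with hexane, of the mushroom Amauroderma rugosum. The 2 arrays were chosen by their label as cells that received no treatment. They are the controls of the study, whose other arrays came from cells given LPS, the fraction, or both for 24 h, and those arrays were not compared here. Untreated cells had the same medium as all other groups, with fetal bovine serum, insulin, non-essential amino acids, antibiotics and an antifungal, and total RNA was labelled with the dye Cy3. The design text calls the 2 samples biological replicates, and nothing in the labels says how far apart the cultures were grown. BV-2 is one immortalised line, so neither array carries variation between animals.

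Microglia are the resident macrophages of the brain. They depend on signalling through the receptor of colony-stimulating factor 1, take up debris and synapses, and in the healthy brain carry a set of surface receptors and transcription factors that other macrophages lack or hold at low levels. BV-2 cells were made by infecting neonatal microglial cultures with a retrovirus that carries oncogenes, v-myc among them. Cultured microglia are known to lose much of the homeostatic programme once they leave the brain.

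Each array held 55681 probes that were not controls. Signal is given as log2 of the processed signal over the 75th percentile of its array, called relative signal here, so 0 is brighter than 75% of probes. A probe's signal percentile is the percent of probes on the same array that were dimmer. A probe was called detected where the scanner software marked it well above background on both arrays, and otherwise not detected, which bounds its signal and does not show that its RNA was absent. Probes differ in how strongly they bind and label, so a percentile places one probe on its array and does not order the amounts of different RNAs. RNA came from whole cultures, so fewer cells with an RNA and less of it per cell cannot be told apart, and 2 arrays limit the precision of every value.

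The 2 arrays were not of equal quality. Replicate 2 had 29578 probes (53.1%) well above background and replicate 1 had 26602 (47.8%). Among 399 probes printed 10 times, the median SD across those spots was 0.058 log2 units on replicate 2, over the 255 well above background there, and 0.694 on replicate 1, over 244. In windows of 30 spot rows by 15 spot columns, replicate 1 minus replicate 2 deviated from its overall median by between -1.8 and 2.19 log2 units, and 12 of 143 windows passed 1 log2 unit. Of these, 9 were dimmer on replicate 1, and 3 were brighter. The 2550 spots of the 255 probes well above background on replicate 2 were each set against their own probe's median. They followed the window deviation on replicate 1 (r = 0.68 across spots) and did not on replicate 2 (r = -0.05), so the unevenness lay on replicate 1. These 12 windows held 4700 probes (8.4%), and genes measured there are named as lying in an uneven window. Values of replicate 2 are therefore given beside those of replicate 1 throughout.

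**Figure D1:**
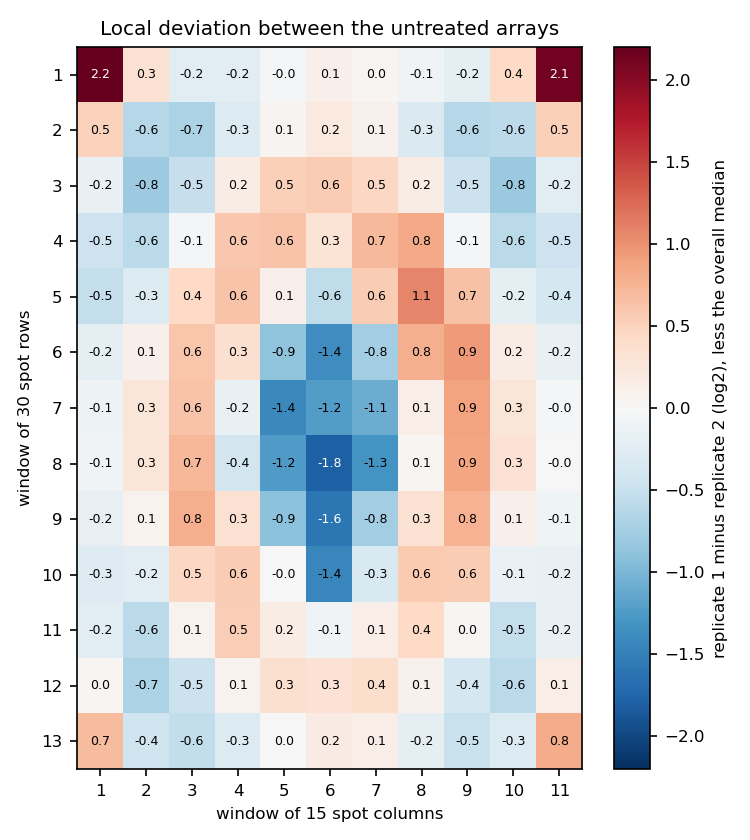
Local deviation of replicate 1 from replicate 2, in log2 units less the overall median, for each of the 143 windows of the array (13 by 11), with window rows down the page and window columns across. Windows at the centre were dimmer on replicate 1, down to -1.8, and windows at the upper corners were brighter, up to 2.19.

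Over all 55681 probes, signal ranks of the 2 arrays correlated at Spearman's rho 0.85 and log2 signals at Pearson's r 0.94. Over the 25326 detected probes both were 0.96, and the SD of the difference between arrays was 0.85 log2 units. With each window's deviation taken off replicate 1 that SD was 0.65, and 1992 detected probes (7.87%) differed by over 1 log2 unit, against 3765 (14.9%) before. The deviation was estimated from this same difference, over spots well above background on replicate 2, so a fall among detected probes is by construction. Over all probes the SD went from 1.31 to 1.34, and the share differing by over 1 log2 unit from 30.9% to 24.6%. In the uneven windows the SD went from 2.38 to 2.58, and that share from 86.0% to 70.9%. At the top of the order, the brightest 100 probes of each array shared 42, the brightest 500 shared 373 (74.6% of each list) and the brightest 1000 shared 850 (85.0%). Probes on one array share their labelling and hybridisation and are not independent replicates.

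**Figure D2:**
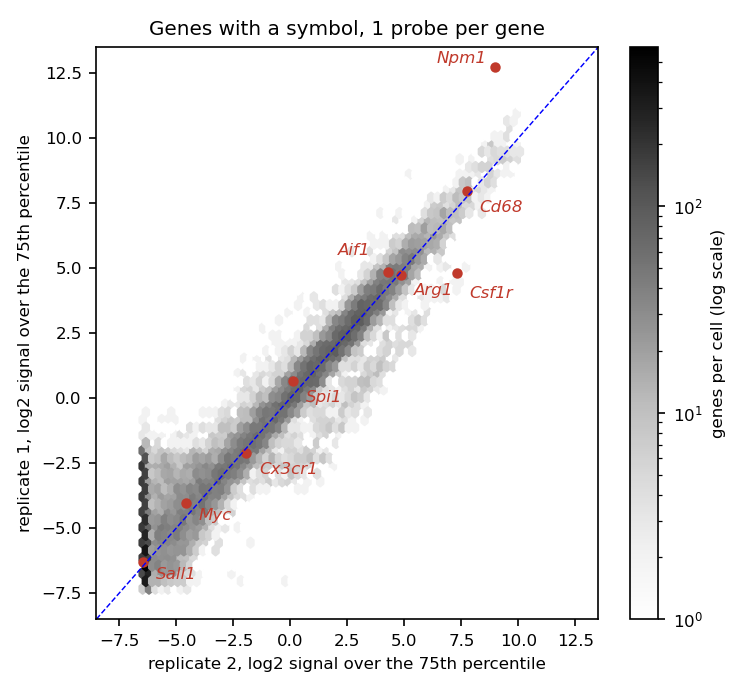
Relative signal of 21154 genes, 1 probe each, with replicate 2 on the x axis and replicate 1 on the y axis (log2 over the 75th percentile), shaded by the number of genes per cell, with named genes in red and equality dashed. The off-diagonal band under the line holds genes dimmer on replicate 1, among them Csf1r at 7.29 on replicate 2 and 4.82 on replicate 1.

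Of 55681 probes, 25326 (45.5%) were detected, 4252 were well above background on replicate 2 alone, 1276 on replicate 1 alone and 24827 on neither. A symbol could be given to 28026 probes, which stand for 21154 genes, each read from its brightest probe. On that basis 12157 genes (57.5%) were detected, and this share is the background for every list that follows. On replicate 2 alone 64.0% of genes were well above background, and on replicate 1 alone 59.1%. Protein-coding genes were detected in 11753 of 19839 cases (59.2%), long non-coding RNA genes in 301 of 1090 (27.6%) and transcribed pseudogenes in 92 of 203 (45.3%). Genes measured in the uneven windows were detected in 653 of 1829 cases (35.7%), and 452 more were well above background on replicate 2 alone, so replicate 1 alone kept those 452 from being called detected.

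All 5 general markers of microglia and macrophages were detected. Cd68, a lysosomal glycoprotein of phagocytes, had a relative signal of 7.74 on replicate 2 and 7.94 on replicate 1, and lay above 98.6% and 98.7% of probes. Aif1, which encodes the actin-binding protein IBA1, stood at 4.29 on replicate 2 and 4.85 on replicate 1. Csf1r, the receptor for the survival factors CSF1 and IL-34, was measured by 3 probes, all detected. Its brightest probe lay in an uneven window and had 7.29 on replicate 2 and 4.82 on replicate 1, while its other probes had 3.45 and 2.25 on replicate 2. Spi1, which encodes the myeloid transcription factor PU.1, had 0.12 on replicate 2 and 0.65 on replicate 1, near the 75th percentile of both arrays. Cx3cr1, the receptor for the neuronal chemokine fractalkine, was the dimmest of the 5, with -1.92 on replicate 2 and -2.12 on replicate 1, and 2 of its 3 probes were detected. It lay above 63.5% of probes on replicate 2 and 61.4% on replicate 1. Both values were below the median percentile of all genes, 65.8 on replicate 2 and 65.1 on replicate 1. Detection of these 5 markers does not by itself identify the cell type, since 57.5% of all genes were detected.

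Genes tied to homeostatic microglia were split. Of 17 measured, 11 (64.7%) were detected, against 57.5% of all genes. Siglech, a lectin of microglia, had 7.4 on replicate 2 and 7.3 on replicate 1, with 1 of its 2 probes detected. Trem2, a lipid receptor that drives uptake, had 7.16 on replicate 2 and 6.92 on replicate 1. Tmem119, a surface protein used to tell microglia from infiltrating macrophages, had 0.39 on replicate 2 and 0.43 on replicate 1. P2ry12, the purine receptor that guides microglial processes to injury, was detected at -3.04 on replicate 2 and -2.54 on replicate 1, above 55.5% and 56.0% of probes. Selplg, Sparc, Tgfbr1, Gpr84, Fcrls and Olfml3 were detected too. P2ry13, Gpr34, Crybb1, Sall1 and, in an uneven window, Slc2a5 were not well above background on either array. Mertk, a receptor for apoptotic cells, was well above background on replicate 2 alone, with 0.51 there and -2.86 on replicate 1. Sall1, the transcription factor that sets microglia apart from other macrophages, lay above only 5.4% of probes on replicate 2 and 11.3% on replicate 1.

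Markers of macrophages at the brain's borders and in other tissues were also mixed, with 4 of 8 detected. Pf4, a platelet and macrophage chemokine, had 5.6 on replicate 2 and 5.89 on replicate 1, and Adgre1, which encodes F4/80, had 5.19 and 4.76. Ms4a7 and the mannose receptor Mrc1 lay near the 75th percentile. Lyve1, the haemoglobin scavenger Cd163 and, in an uneven window, Timd4 were not well above background on either array. Among monocyte markers, the integrin Itgam was detected with all 3 probes, at 4.3 on replicate 2 and 5.6 on replicate 1, while the chemokine receptor Ccr2 was not detected.

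**Figure D3:**
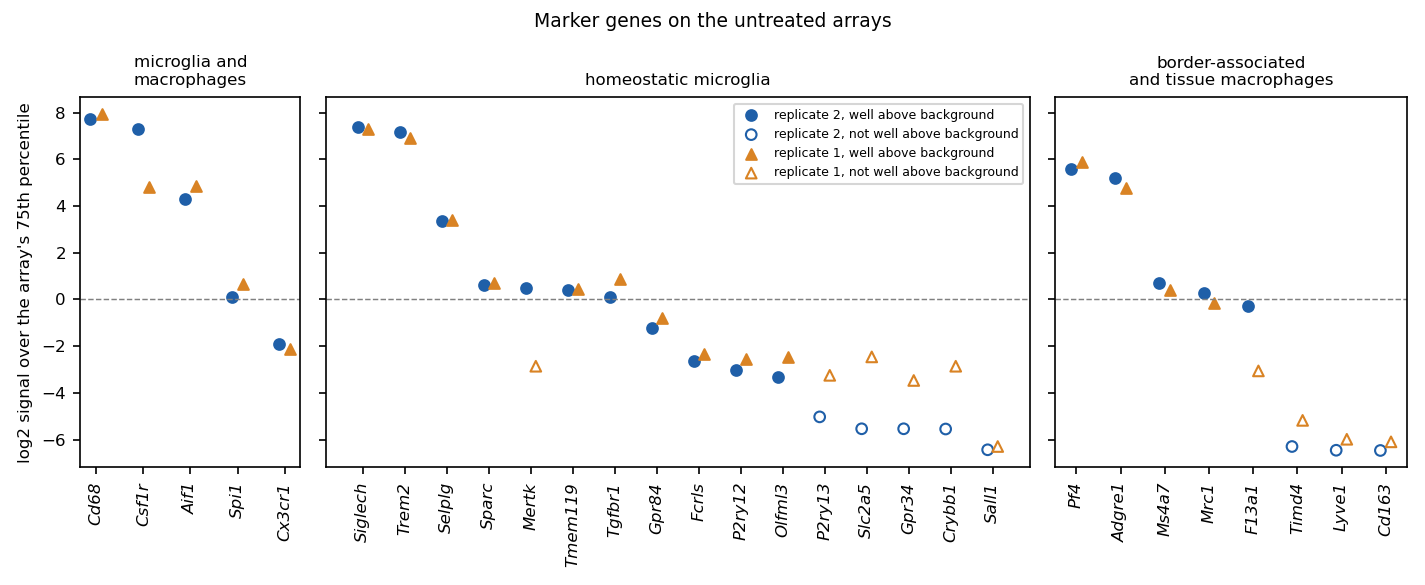
Relative signal (log2 over the array's 75th percentile, y axis) of 29 marker genes of microglia and macrophages, homeostatic microglia and border-associated macrophages, with replicate 2 as circles and replicate 1 as triangles, filled where well above background. All 5 general markers are filled on both arrays, and Sall1, Gpr34, P2ry13, Lyve1 and Cd163 are open on both.

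Markers of other cell types gave 30 detected genes of 71 measured (42.3%), below the 57.5% of all genes, with a median signal percentile of 45.5 on replicate 2. Neuronal markers were nearly all at background, with 1 of 8 detected, the synaptic protein gene Snap25 at 3.5 on replicate 2 and 3.09 on replicate 1. Among astrocyte markers 2 of 7 were detected, Aldh1l1 and Aqp4, both below -3 on replicate 2. Of oligodendrocyte markers 6 of 9 were detected, and the myelin gene Mog had -0.15 on replicate 2 and 0.87 on replicate 1. The lineage factors Olig1 and Olig2 were not detected. Among T cell markers 5 of 6 were detected, and the CD3 subunit gene Cd3e had 2.4 on replicate 2 and 2.2 on replicate 1. Cd4, which had 2.62 on replicate 2 and 4.5 on replicate 1 in an uneven window, gave -3.28 on replicate 2 from its other probe. B cells had 2 of 6 markers detected, dendritic cells 2 of 5, mast cells 1 of 4, endothelium 3 of 6, fibroblasts and pericytes 2 of 7, epithelium 2 of 5, granulocytes 3 of 5 and erythroid cells 1 of 3. Kdr, a receptor for vascular endothelial growth factor, was detected with both probes, at 4.17 and 3.54 on replicate 2. Whether such signals come from the named RNA was not tested.

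Transcription factors of the macrophage lineage were detected in 22 of 26 cases (84.6%). Cebpb, a factor of inflammatory macrophages, had 5.61 on replicate 2 and 4.61 on replicate 1. Mitf, which drives lysosomal genes, had 3.93 and 3.96. Irf8, which microglia need to develop, was read in an uneven window with 4.7 on replicate 2 and 1.98 on replicate 1. Myb, a factor of blood progenitors that microglial development does not need, and the immediate early factor Egr1 were not detected. Receptors for growth factors and lineage cytokines were detected in 20 of 25 cases. The granulocyte factor receptor Csf3r had 6.62 on replicate 2 and 5.82 on replicate 1, and the granulocyte-macrophage factor receptor chains Csf2ra and Csf2rb were detected too, at 5.01 and 4.87 on replicate 2. Their ligands Csf2 and Csf3 were not detected, whereas Csf1 was detected with 3 of 3 probes, at 3.12 on replicate 2 and 2.37 on replicate 1. Il34, the other ligand of CSF1R, was read in an uneven window and was well above background on replicate 2 alone.

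Genes that rise in microglia around plaques and in degeneration, often called disease-associated, were all detected (26 of 26), with a median signal percentile of 98.4 on replicate 2 and 98.0 on replicate 1, against 65.8 and 65.1 over all genes. Apoe, the lipid carrier, had 9.23 on replicate 2 and 9.25 on replicate 1, and the ferritin heavy chain gene Fth1 had 9.8 and 9.24. Fabp5, which binds fatty acids, had 9.11 and 9.25, and the galectin gene Lgals3 had 8.84 and 7.98. The protease gene Ctsl and the tetraspanin gene Cd63 lay above 99% of probes on both arrays. Spp1, which encodes osteopontin, had 8.39 on replicate 2 and 7.59 on replicate 1, and the lipase gene Lpl had 7.48 and 7.59. Axl, a receptor for apoptotic cells, had the lowest percentile of the list on replicate 2, 59.3. Lysosomal genes were detected in 28 of 29 cases, with a median percentile of 97.6 on replicate 2.

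**Figure D4:**
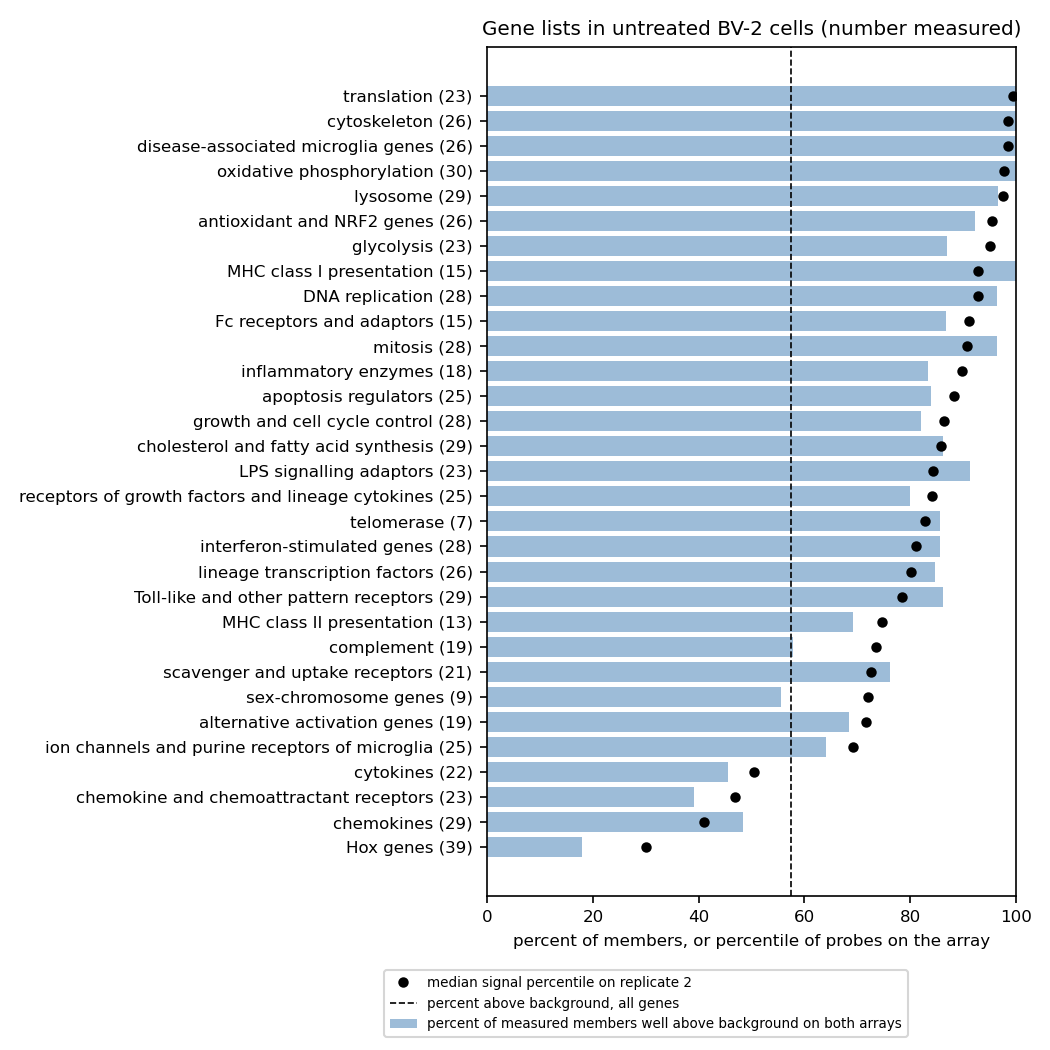
Percent of the measured members of each gene list that were detected (bars, list size in brackets) and the list's median signal percentile on replicate 2 (points), both on the x axis from 0 to 100, with all genes at 57.5% (dashed). Translation, cytoskeleton, disease-associated and oxidative phosphorylation genes reached 100.0%, and Hox genes 17.9%.

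Sensing genes were mostly detected before any LPS was given. Toll-like and other pattern receptors passed in 25 of 29 cases (86.2%). Tlr4, the LPS receptor, had 0.80 on replicate 2 and 2.33 on replicate 1, in an uneven window, and its partner Ly96 had 0.57 and -0.10. Cd14, which hands LPS to TLR4, had 3.19 on replicate 2 and 3.35 on replicate 1. Tlr2, the receptor for bacterial lipopeptides, had 3.25 and 3.03, and Tlr7, which senses single-stranded RNA, had 3.9 and 4.67. Tlr3, Tlr5, Tlr8 and Tlr11 were not detected. Of the LPS signalling adaptors 21 of 23 were detected, among them Myd88 at 2.76 on replicate 2 and 2.92 on replicate 1, Rela, Irak2 and Nfkbia. Ticam2, the bridge to the interferon arm, was not detected, and Tbk1, a kinase of that arm, was well above background on replicate 2 alone.

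Of the secreted products, cytokines were detected in 10 of 22 cases (45.5%) and chemokines in 14 of 29 (48.3%), beside 57.5% of all genes. Tnf had 0.44 on replicate 2 and 0.43 on replicate 1. Il1b, Il6, Il10, Ifnb1 and Il12a were not well above background on either array. Mif, a constitutive cytokine, had 9.34 and 9.12, and Tgfb1, which keeps microglia homeostatic, had 1.67 and 0.98. Among chemokines, Ccl3 had 7.01 on replicate 2 and 7.36 on replicate 1, Ccl4 had 5.64 and 5.23, and the monocyte attractant Ccl2 had 3.96 and 2.91. Receptors for chemokines and other attractants were detected in 9 of 23 cases (39.1%). Cxcr4 was among them at 1.63 on replicate 2 and 2.09 on replicate 1, and Ccr1, Ccr2 and Ccr4 were not.

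Arg1 and Nos2, whose enzymes compete for arginine, were both detected in untreated cells. Arg1, which makes ornithine and marks alternatively activated macrophages, had 4.87 on replicate 2 and 4.75 on replicate 1, above 94.7% and 94.4% of probes. Nos2, the inducible nitric oxide synthase, had 1.93 on replicate 2 and 1.91 on replicate 1, above 84.2% of probes on both. Acod1, which makes itaconate, had 2.18 and 1.88. Alternative activation genes were detected in 13 of 19 cases, with the lectin gene Mgl2 at 6.58 on replicate 2 and 6.29 on replicate 1 and the chitinase-like gene Chil3 at 1.15 and 1.09. Retnla, Ccl17, Ccl22, Fn1 and Cd163 were not detected. Inflammatory enzymes were detected in 15 of 18 cases. These included the oxidase subunits Cyba and Ncf4 and the haem oxygenase gene Hmox1, which had 5.61 on replicate 2 and 5.47 on replicate 1. Ido1, Arg2 and Alox5 were not detected.

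Interferon-stimulated genes were detected in 24 of 28 cases, though Ifnb1 was not. Bst2, which tethers budding virus, had 6.22 on replicate 2 and 6.03 on replicate 1, Oas1a had 6.11 and 5.55, and Isg15 had 3.47 and 4.23. Ifi44l, read in an uneven window, was not detected. All 15 genes of MHC class I presentation were detected, with B2m at 8.37 on replicate 2 and 7.27 on replicate 1. For class II the picture divided. The protease Ctss (7.75 and 7.92) and the invariant chain Cd74 (4.87 and 5.23) were detected, but the chains H2-Aa, H2-Ab1 and H2-Eb1 and their activator Ciita were not. Complement genes were detected in 11 of 19 cases (57.9%), close to the background share. C1qb and C1qc, parts of the recognition unit that tags synapses, were detected at 3.43 and 3.61 on replicate 2, while C1qa was well above background on replicate 2 alone. Fc receptors and their adaptors were detected in 13 of 15 cases, with the adaptor of TREM2, Tyrobp, at 7.76 on replicate 2 and 8.19 on replicate 1. Ion channels and purine receptors known in microglia were detected in 16 of 25 cases, among them P2rx4 at 4.85 and 5.32 and the proton channel Hvcn1 at 2.74 and 2.63.

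Mitosis genes and DNA replication genes were each detected in 27 of 28 cases, with median percentiles of 90.7 and 92.9 on replicate 2. Mki67 had 5.05 on replicate 2 and 5.99 on replicate 1, and Pcna, the replication clamp, had 7.04 and 7.16. Cdk4, the kinase of cyclin D, had 6.3 and 5.82 with 3 of 3 probes detected, and Cdkn2a, whose products inhibit that kinase and stabilise p53, had 5.59 and 6.15 with both probes. Myc, the cellular relative of v-myc, was not well above background on either array, and neither were Mycl and Mycn. Whether the Myc probe reads the viral copy was not tested. Tert, the telomerase catalytic subunit, was detected at -1.57 on replicate 2 and -2.59 on replicate 1.

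Among the 30 genes with the highest mean signal over both arrays, 15 encoded ribosomal proteins, many of which have near-identical pseudogene copies that a probe may also bind. The other 15 were Ftl1, the ferritin light chain, Npm1, a nucleolar chaperone, Tpt1, Actb, Ppia, Aldoa, Gla, Exosc2, H2ac20, Elk1, Glrx2, Pbld1, Zfp628 and, in uneven windows, Endov and Medag. Ftl1 had 9.95 on replicate 2 and 11.96 on replicate 1. Npm1 had 8.96 and 12.72 in an uneven window, so its place at the top rests on replicate 1. The order at the top came with doubtful probes too. Of the 17 of these genes with another probe, 4 had all of their other probes over 5 log2 units dimmer on replicate 2. Elk1 had 9.65 from one probe and -3.2 from the other, and Pbld1 had 9.68 against -4.74, where the second was not detected. Glrx2 and Zfp628 showed like gaps. Over the 2912 genes with at least 2 detected probes, the median range between probes of a gene was 2.03 log2 units, or 4.08-fold, and 329 genes had a range over 5 log2 units.

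Of the genes of energy metabolism, 30 of 30 for oxidative phosphorylation and 20 of 23 for glycolysis were detected. Gapdh was detected with 7 of 7 probes, at 9.67 on replicate 2 and 9.15 on replicate 1. In 3 pairs of related enzymes one gene was detected and the other was not. Ldha had 9.46 on replicate 2 while Ldhb was not detected, and Eno1 had 8.86 while the neuronal form Eno2 was not. The desaturase gene Scd2 had 8.05 on replicate 2 and 7.75 on replicate 1, and Scd1 was not detected. Antioxidant genes were detected in 24 of 26 cases, and Nqo1, a standard NRF2 target, was not well above background on either array. Its probe had -6.3 on replicate 2 and -3.6 on replicate 1, in an uneven window that was brighter on replicate 1.

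Promoters of detected and undetected genes were set side by side for base composition, as a description with no test. CpG-rich promoters are typical of genes used in most cells, while many tissue-restricted genes have few CpG. RefSeq promoter sequences (GRCm38.p6, 250 bases before to 50 after the start) matched 15882 protein-coding genes, and a promoter was called CpG-rich with an observed over expected CpG ratio of at least 0.6. It was CpG-rich for 6487 of 9529 detected genes (68.1%), for 1159 of 5098 genes well above background on neither array (22.7%) and for 51.7% of all. Outside the uneven windows the shares were 68.1% and 22.3%. By signal percentile on replicate 2, the share was 24.0% below 10, 35.1% between 50 and 60, 50.8% between 60 and 70, and 77.0% above 90.

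The promoters of 4 genes show the range, with each CG in capitals, written 5′ to 3′ on the strand of the gene. Aif1 (chr17:35176003-35176302, minus strand) and Cd68 (chr11:69666121-69666420, minus strand) are detected microglial markers with few CG, Sall1 (chr8:89044113-89044412, minus strand) is an undetected one with many, and Cdk4 (chr10:127063285-127063584, plus strand) is a detected cell cycle gene.
Aif1: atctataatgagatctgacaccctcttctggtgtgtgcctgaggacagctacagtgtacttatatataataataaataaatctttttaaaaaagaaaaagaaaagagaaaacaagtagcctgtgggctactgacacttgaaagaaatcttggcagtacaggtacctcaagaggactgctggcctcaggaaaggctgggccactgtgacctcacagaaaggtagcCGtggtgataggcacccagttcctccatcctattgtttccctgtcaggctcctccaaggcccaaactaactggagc
Cd68: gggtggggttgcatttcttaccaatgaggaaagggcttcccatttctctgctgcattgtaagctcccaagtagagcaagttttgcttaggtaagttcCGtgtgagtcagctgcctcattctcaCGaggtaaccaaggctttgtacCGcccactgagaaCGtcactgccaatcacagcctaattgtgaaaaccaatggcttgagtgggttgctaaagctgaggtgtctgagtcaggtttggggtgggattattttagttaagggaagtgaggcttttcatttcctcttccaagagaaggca
Sall1: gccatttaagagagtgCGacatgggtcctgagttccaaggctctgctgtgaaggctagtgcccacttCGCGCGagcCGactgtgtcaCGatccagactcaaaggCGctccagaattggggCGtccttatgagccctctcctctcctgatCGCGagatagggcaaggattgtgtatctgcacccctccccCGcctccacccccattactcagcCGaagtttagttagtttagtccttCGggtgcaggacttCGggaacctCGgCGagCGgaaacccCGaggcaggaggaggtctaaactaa
Cdk4: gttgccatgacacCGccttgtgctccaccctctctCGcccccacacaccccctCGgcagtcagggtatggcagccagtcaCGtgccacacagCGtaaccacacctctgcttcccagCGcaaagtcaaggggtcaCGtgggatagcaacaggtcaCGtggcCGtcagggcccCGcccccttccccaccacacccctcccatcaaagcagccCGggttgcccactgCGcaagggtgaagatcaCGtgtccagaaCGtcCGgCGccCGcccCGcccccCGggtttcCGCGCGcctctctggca

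The Aif1 promoter held 1 CG, with a ratio of 0.07, and the Cd68 promoter held 4, with a ratio of 0.24. The Sall1 promoter held 18 (ratio 0.73), and is one of the 1159 CpG-rich promoters whose gene was at background on both arrays. The Cdk4 promoter held 22 (ratio 0.7) and 4 copies of CACGTG, the E-box that MYC and MAX can bind. By list, CpG-rich promoters were found for 23 of 24 mitosis genes, 19 of 20 oxidative phosphorylation genes and 17 of 18 translation genes. Of the lists with immune genes, the counts were 0 of 3 general microglial markers, 0 of 12 complement genes, 1 of 23 interferon-stimulated genes, 5 of 22 pattern receptors, 6 of 21 disease-associated genes and 15 of 19 lineage transcription factors. All measured disease-associated genes were detected all the same.

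Short motifs were counted on both strands of the same window, and matches can overlap. CCGGAAG, the core bound by ETS factors, was found in 17.9% of promoters of detected genes, 3.39% of those of genes at background on both arrays and 12.5% of all. It contains a CG, so its share is tied to CpG content. The PU.1 core GAGGAAGT, which has no CG, was found in 3.3%, 2.41% and 2.9%. CACGTG was found in 954 of 9529 promoters of detected genes, 5.59% of those at background and 8.37% of all. It contains a CG as well, so its share too is tied to CpG content. The AP-1 site TGACTCA, which has no CG, was found in 3.7%, 6.12% and 4.5%. TATAAA on the gene's strand between 40 and 15 bases before the start was found in 1.68%, 4.9% and 2.81%. A match shows letters and not a bound site.

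**Figure D5:**
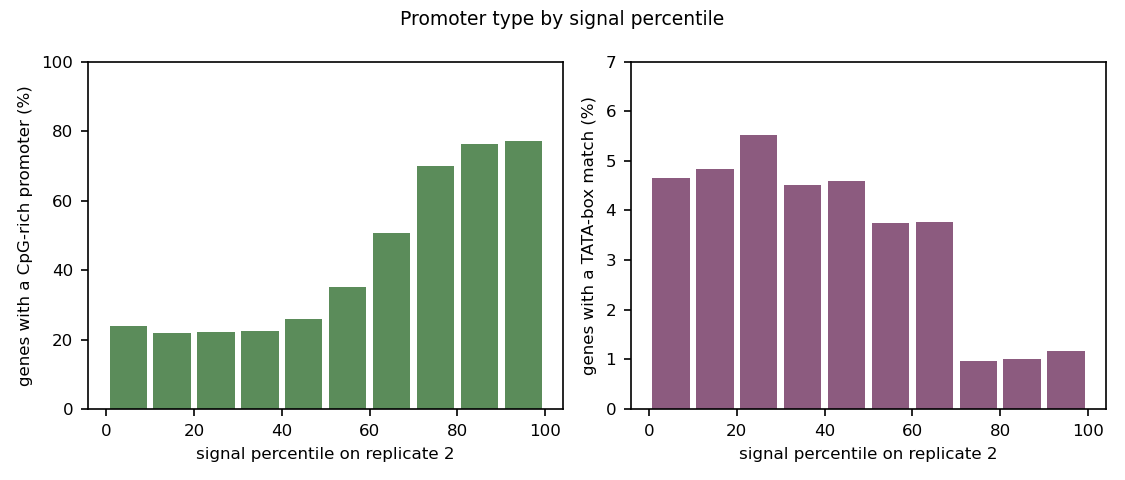
Percent of protein-coding genes with a CpG-rich promoter (left, y axis 0 to 100) and with TATAAA 40 to 15 bases before the start (right, y axis 0 to 7), in bins of 10 of the signal percentile on replicate 2 (x axis). The CpG-rich share is 24.0% in the lowest bin and 77.0% in the highest, where the TATAAA share is 1.17%, against 4.66% in the lowest.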

How the data were processed

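RNA of 2 untreated BV-2 cultures was read on single-colour Agilent arrays. Per the file headers, the deposited intensity values were made by Agilent Feature Extraction 11.5.1.1, which subtracted background and did not scale between arrays; Feature Extraction is also named in the submitters' processing notes. The deposited series matrix was centred on each probe's median over the 8 arrays, so it holds no baseline level and was not used.

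Spots marked as faulty (118 on replicate 2, 228 on replicate 1) were left out where their probe had an unmarked spot. A probe with every spot marked, such as a marked probe printed once, kept its value. Repeated spots of a probe were averaged, and the 75th percentile of each array was taken off its log2 signals. Probes took symbols through RefSeq accessions (28026 of 55681), and a gene took its brightest probe. No groups were compared and no test was run. Computation used Python 3.11.15, numpy 2.4.6, pandas 2.3.3 and limma 3.58.1 in R 4.3.3, and scripts were tested on simulated data.

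The 2 arrays and the 47 gene lists were chosen with earlier results of these data known. Named genes are the 5 markers, the 30 brightest with an approved-style symbol (numbered gene models and clone names left out), all cell type markers, and per list up to 6 of the highest percentile and up to 6 undetected, in alphabetical order. Named after their values were seen were Il1b, Il6, Nos2, Acod1, Tlr2, Tlr4, Cd14, Ly96, Myd88, Spp1, Lpl and Axl. So were the Y-linked genes Gm20736, Sly, H2al2b, Rbmy and Sry. The promoter analysis, its 15 motifs, the 4 promoters printed and the 23 symbol families were also chosen after values were seen. Alternatives were each array alone, a looser detection mark, normexp with an offset of 50 (on median pixel signals), other scalings, other probe rules and removal of uneven windows. A few genes that the rule names are counted in their lists and not reported singly here.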

Additional observations from a re-analysis of the deposited data

How the results depend on the processing

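Detected probes numbered 25326 of 55681, against 26602 to 29578 with 1 array left out and 35463 with the looser mark of a positive and significant signal. Outside uneven windows they numbered 24067 of 50981. Detected genes numbered 12157 of 21154 (57.5%), against 12495 to 13535 with 1 array left out and 15031 with the looser mark. With every probe of a gene required they numbered 10708. Outside uneven windows they numbered 11504 of 19325 (59.5%), so the count was lower and the share was not. With the names in the scanner files the count was 17267, over another set of names and so not a share of 21154. No probe was saturated. The Spearman correlation of 0.85 over all probes became 0.879 with normexp, 0.961 over detected probes, 0.875 outside uneven windows and 0.917 with 1 probe per gene; the cause was not tested. The brightest 500 shared 373 probes, and 373 to 399 under the alternatives. Of 412 genes followed singly, 246 moved by more than their replicate SD with normexp, 77 with the mean over probes (by up to 7.36 log2 units) and 72 with the window deviation taken off. Scaling by the array median moved all by 3.34, and by the 75th percentile of detected probes by -2.94, by construction. With 2 arrays, leaving 1 out cannot move a mean beyond its SD, so that alternative says nothing about stability. No paired analysis was possible because only 1 group is described.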

Other observations

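Genes of the sex chromosomes gave one pattern with a few exceptions. Xist, the RNA that silences an X chromosome, was detected with both of its probes, at 2.42 and 0.78 on replicate 2 and 2.27 and 0.28 on replicate 1. The Y-linked genes Ddx3y, Uty, Eif2s3y and Kdm5d were not well above background on either array, while their X-linked partners Ddx3x, Kdm6a, Eif2s3x and Kdm5c were detected. On the Y chromosome 3 of 21 genes were detected, Gm20736, Sly and H2al2b. Rbmy and Sry were well above background on replicate 2 alone, at -3.68 and -4.01 there. Sly belongs to a multicopy family with X-linked relatives. Among X-linked genes 370 of 839 (44.1%) were detected, and autosomes ran from 51.1% on chromosome 6 to 64.1% on chromosome 11.

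Gene families, grouped by symbol after values were seen, lay on both sides of the 57.5% of all genes. Cytosolic ribosomal proteins were detected in 78 of 81 cases, mitochondrial ones in 77 of 78, proteasome subunits in 38 of 40 and replication-dependent histones in 32 of 35. Olfactory receptors were detected in 127 of 1072 cases (11.8%), vomeronasal receptors of type 1 in 18 of 164, bitter taste receptors in 3 of 35 and ionotropic glutamate receptors in 3 of 19. Hox genes were detected in 7 of 39 cases, with Hoxa7 at 0.94 on replicate 2 and 1.49 on replicate 1. Probes in intergenic regions outside named genes were detected in 4866 of 16194 cases, a share below the 45.5% of all probes. Of 1067 such regions probed on both strands, 532 had a detected probe on each strand, 385 on one and 150 on none. A strand counted where any of its probes was detected, and the 16194 probes lay in 3543 regions. The counts of regions therefore cannot be set beside the share per probe. Whether signal in families of sensory receptors comes from the named RNAs was not tested.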
